A study of Rattus norvegicus with 6 samples.

Results

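Trim54, Stac3, Scn4b, Grin2c, Lrtm2 and Mmd2 are 6 rat genes best known from muscle and nerve or belonging to families of membrane proteins studied there, and all were measured here in liver. They were selected on the size of their measured difference, out of 15284 genes named on the array, as muscle- or nerve-associated genes among the largest shifts between rats given ADBAQ and rats given vehicle. All 9 probes whose RefSeq accession belongs to these genes were taken, out of 61657 probes that were not controls. Their differences between the groups are therefore given as a description, without a test. By the measured log2 difference, Trim54, Scn4b and Grin2c stood among the 11 highest of 11344 tested genes and Lrtm2, Stac3 and Mmd2 were the lowest 3. For Trim54, Scn4b and Mmd2 this place rests on signals below detection on some or all arrays of 1 group, so it fixes no rank.

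The study compared the livers of 6 male Sprague-Dawley (Crl:CD(SD)) rats, bought at 5 weeks of age and kept on a basal diet, 1 array per animal. ADBAQ, 1-amino-2,4-dibromoanthraquinone, an intermediate of anthraquinone dyes, had been given to 3 of them at 1000 mg/kg/day. The other 3 had received only the vehicle, for which one label has purified water and another corn oil. The duration is given as 28 days in the design and as 9 weeks in the treatment protocol. Cy3-labelled RNA was hybridised to 1-colour Agilent arrays. Each group had its own slide, and each slide was scanned on its own day. A shift tied to the slide or the scan cannot be told apart from one tied to ADBAQ. The 75th percentile of the processed signal ran from 433 to 461 on vehicle arrays and from 570.3 to 643 on ADBAQ arrays, between 62.1% and 65.3% of probes were well above background, and the number of arrays limits the precision. Hepatocyte markers were bright on every array, and 8 of 12 fell and none rose, with a median log2 fold change of -0.47. Over all tested genes 11.3% were lower and 9.05% higher. Spike-in scaling moved the median of all tested genes from -0.04 to 0.72. That shift is larger than the median fall of the hepatocyte markers, whose direction therefore depends on the scaling. On the representative probe of albumin (Alb, -0.35, limma, adjusted p = 0.0458) the direction turned with quantile normalization, normexp and spike-in scaling. The call of that probe was lost with any 1 array left out (highest adjusted p = 0.134). The other albumin probes changed by -0.73 and -0.71, and all 3 were called lower. The mean of the albumin probes was -0.59 (limma, adjusted p = 0.00877).

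In striated muscle, an action potential is carried by voltage-gated sodium channels, sensed by a calcium channel of the surface membrane and passed to the ryanodine receptor, which releases calcium onto the sarcomere. Trim54, also known as MuRF3, is a muscle RING finger protein of the sarcomere and microtubules, and Stac3 is an adaptor that links the calcium channel to the ryanodine receptor in skeletal muscle. Scn4b is an auxiliary beta subunit of sodium channels in neurons, heart and muscle. Grin2c is the GluN2C subunit of the NMDA glutamate receptor, best known from the cerebellum. Lrtm2 is a transmembrane protein with leucine-rich repeats, and Mmd2 is a multi-pass membrane protein of the PAQR family.

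The 250 bases before the annotated start of each gene were searched on both strands for 5 motifs, because genes that moved far in the same livers could share letters there. The motifs were the dioxin response element TNGCGTG, the antioxidant response element TGACNNNGC, the E-box CAGCTG bound by myogenic factors, the MEF2 motif (CTA and TAG parted by any 4 bases) and the STAT motif TTCNNNGAA. The 4 windows with a match are shown from RefSeq (GRCr8), 5′ to 3′ along the gene, with the CAGCTG matches in capitals.
Trim54, chr6:30978476-30978725, minus strand: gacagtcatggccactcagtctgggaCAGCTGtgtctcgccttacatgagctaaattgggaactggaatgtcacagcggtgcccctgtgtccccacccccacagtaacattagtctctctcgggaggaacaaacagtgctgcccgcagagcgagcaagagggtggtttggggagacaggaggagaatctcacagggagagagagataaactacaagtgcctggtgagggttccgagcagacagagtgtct
Scn4b, chr8:54343623-54343872, plus strand: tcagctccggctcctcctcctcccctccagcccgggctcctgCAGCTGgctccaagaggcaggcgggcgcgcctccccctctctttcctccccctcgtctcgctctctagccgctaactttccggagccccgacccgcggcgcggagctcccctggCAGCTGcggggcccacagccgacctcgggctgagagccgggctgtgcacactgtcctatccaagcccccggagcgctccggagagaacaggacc
Stac3, chr7:65228225-65228474, plus strand: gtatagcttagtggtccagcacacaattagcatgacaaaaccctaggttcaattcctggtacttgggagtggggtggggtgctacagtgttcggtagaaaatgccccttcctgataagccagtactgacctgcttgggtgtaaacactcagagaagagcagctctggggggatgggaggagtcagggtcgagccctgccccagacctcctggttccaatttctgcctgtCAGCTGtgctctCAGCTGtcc
Lrtm2, chr4:154172678-154172927, minus strand: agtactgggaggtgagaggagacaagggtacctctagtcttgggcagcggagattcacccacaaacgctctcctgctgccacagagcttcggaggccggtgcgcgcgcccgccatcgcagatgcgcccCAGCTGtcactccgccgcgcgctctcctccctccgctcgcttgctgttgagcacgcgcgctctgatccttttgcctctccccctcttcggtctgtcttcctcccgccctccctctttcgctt
CAGCTG was the only one of these motifs found, in 4 of 6 members, against 12% of the 33469 promoter windows in the table. It occurred 1 time each before Trim54 and Lrtm2 and 2 times each before Scn4b and Stac3, and the matches overlapped no other motif. Trim54 and Scn4b were higher in ADBAQ, and Lrtm2 and Stac3 lower, so the match did not follow the direction. In all promoter windows TNGCGTG was present in 4.09%, TGACNNNGC in 10.1%, the MEF2 motif in 3.41% and TTCNNNGAA in 7.67%. The windows of Grin2c (chromosome 10) and Mmd2 (chromosome 12) held none of the 5. The GC content ran from 54% (Stac3) to 71.6% (Scn4b), where the median of all windows was 51.2%, and the CG dinucleotides from 2 (Stac3) to 22 (Lrtm2), against a median of 5. A match is a run of letters and not a measured binding site, and which start was used in these livers was not measured. The members were also picked as muscle- or nerve-associated genes, and the background windows were matched neither for this nor for GC content. The share of members with CAGCTG can therefore not be tied to their shift.

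Signals are given first as Feature Extraction's processed signal in scanner units, then as log2 of the signal over the array's 75th percentile. Trim54 was measured by 1 probe. In the vehicle rats 1, 2 and 3 its signal was 3.16, 3.40 and 3.06, not well above background on any array. In the ADBAQ rats it was 431, 490.3 and 634, well above background on each. The groups were far apart, and the ADBAQ rats lay within 1.59-fold of each other after scaling. The mean log2 value was -7.13 ± 0.04 in vehicle and -0.23 ± 0.33 in ADBAQ (SD, n = 3 each), a difference of 6.90. Because the vehicle values are below detection, the fold is given against a floor, the lowest signal of any probe detected on each array. Against that floor it was 30.8-fold. The floor is no strict limit, since an undetected probe can read above it. The dimmer probe of Lrtm2 did so in ADBAQ, where it was well above background on 1 array only. The difference was 2.77 with normexp background correction, which lifts dim values by an offset of 50.

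The other muscle RING finger genes, Trim55 and Trim63, had 2 and 3 probes. The brightest probe of each was not well above background on any of the 6 arrays. Trim55 read between 3.15 and 3.36 in vehicle and between 3.21 and 9.48 in ADBAQ. Trim63 read between 2.79 and 6.51 in vehicle and between 2.75 and 4.06 in ADBAQ. On the brightest probes, Trim54 was therefore the single member of this trio with a detected signal in either group.

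Stac3, also with 1 probe, went the opposite way. Its signal was 1896, 4893 and 5010 in vehicle rats 1, 2 and 3 and 17.8, 62.8 and 447 in ADBAQ rats 1, 2 and 3, well above background on all 6 arrays. The groups did not overlap, and the nearest pair of rats differed 5.56-fold after scaling. The ADBAQ rats themselves spanned 27.0-fold, with rat 1 close to the lowest detected signal and rat 3 highest. The mean log2 value was 3.00 ± 0.82 in vehicle and -2.92 ± 2.39 in ADBAQ (SD, n = 3 each), a 60.7-fold difference (-5.92 ± 1.46 on the log2 scale, SE from the spread of the arrays). It ran from -7.18 to -4.80 when single arrays were left out.

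Scn4b was measured by a brighter and a dimmer probe. On the brighter probe the signal was 2.84, 8.86 and 2.78 in vehicle rats 1, 2 and 3, not well above background on any of them. It was 178, 62.8 and 551 in ADBAQ rats 1, 2 and 3. All ADBAQ values lay above all vehicle values, and ADBAQ rat 3 was highest, 8.40-fold above rat 2 after scaling. The means were -6.77 ± 0.92 and -1.72 ± 1.54 (SD, n = 3 each), and the fold was 11.03 against the floor used for Trim54. The dimmer probe read 2.86, 3.02 and 2.71 in vehicle and 9.56, 3.87 and 21.3 in ADBAQ, and was well above background in ADBAQ rat 3 alone. Its rats stood in the same order within ADBAQ, but its difference of 1.27 ± 0.69 (SE from the arrays) rests on values near background, and it did not pass the filter. The mean difference of both probes was 3.16.

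Grin2c, with 1 probe, was the member with detected signal on all arrays and the tightest groups among those detected throughout. Its signal was 156, 113 and 120.1 in vehicle rats 1, 2 and 3 and 3782, 5729 and 2569 in ADBAQ rats 1, 2 and 3. The lowest ADBAQ rat lay 12.5-fold above the highest vehicle rat after scaling. The means were -1.81 ± 0.25 in vehicle and 2.66 ± 0.62 in ADBAQ (SD, n = 3 each), a 22.2-fold difference (4.47 ± 0.38, SE from the arrays). It was 3.85 with normexp background correction and between 4.14 and 4.75 with single arrays left out.

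Lrtm2 had 2 probes, which gave differences of unequal size. On the brighter probe the signal was 2437, 1170.1 and 1795 in vehicle rats 1, 2 and 3 and 24.1, 19.8 and 69.8 in ADBAQ rats 1, 2 and 3. The groups did not overlap, and the nearest pair of rats differed 21.6-fold after scaling. The means were 1.94 ± 0.55 and -4.23 ± 0.98 (SD, n = 3 each), a 71.8-fold difference. The dimmer probe read 39.4, 20.9 and 35.5 in vehicle and 14.9, 12.8 and 17.04 in ADBAQ, where it was well above background on 1 array. Its groups did not overlap either, and both probes had vehicle rat 2 lowest and ADBAQ rat 3 highest within their groups. Its difference was 2.79-fold (-1.48 ± 0.32, SE from the arrays), so the mean of both probes, -3.82, was well short of the -6.17 of the brighter one. Whether the probes target the same transcripts was not examined, since their sequences were not used here.

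Mmd2 also had 2 probes, and they disagreed on whether the groups were separate. On the brighter probe the signal was 255, 85.2 and 963 in vehicle rats 1, 2 and 3 and 3.15, 44.5 and 5.01 in ADBAQ rats 1, 2 and 3, where only rat 2 was well above background. The groups did not overlap, but the nearest pair, vehicle rat 2 and ADBAQ rat 2, differed only 2.36-fold after scaling. The means were -0.71 ± 1.80 and -6.08 ± 2.12 (SD, n = 3 each). The difference was 41.5-fold from the signals as they stand, and 18.2-fold once each undetected value was set to the lowest signal that counted as detected on its array. The dimmer probe read 18.0, 13.9 and 21.3 in vehicle and 7.51, 19.7 and 14.8 in ADBAQ, and its groups overlapped (-0.85 ± 0.51, SE from the arrays). It did not pass the filter. The mean of both probes was -3.11.

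**Figure D1:**
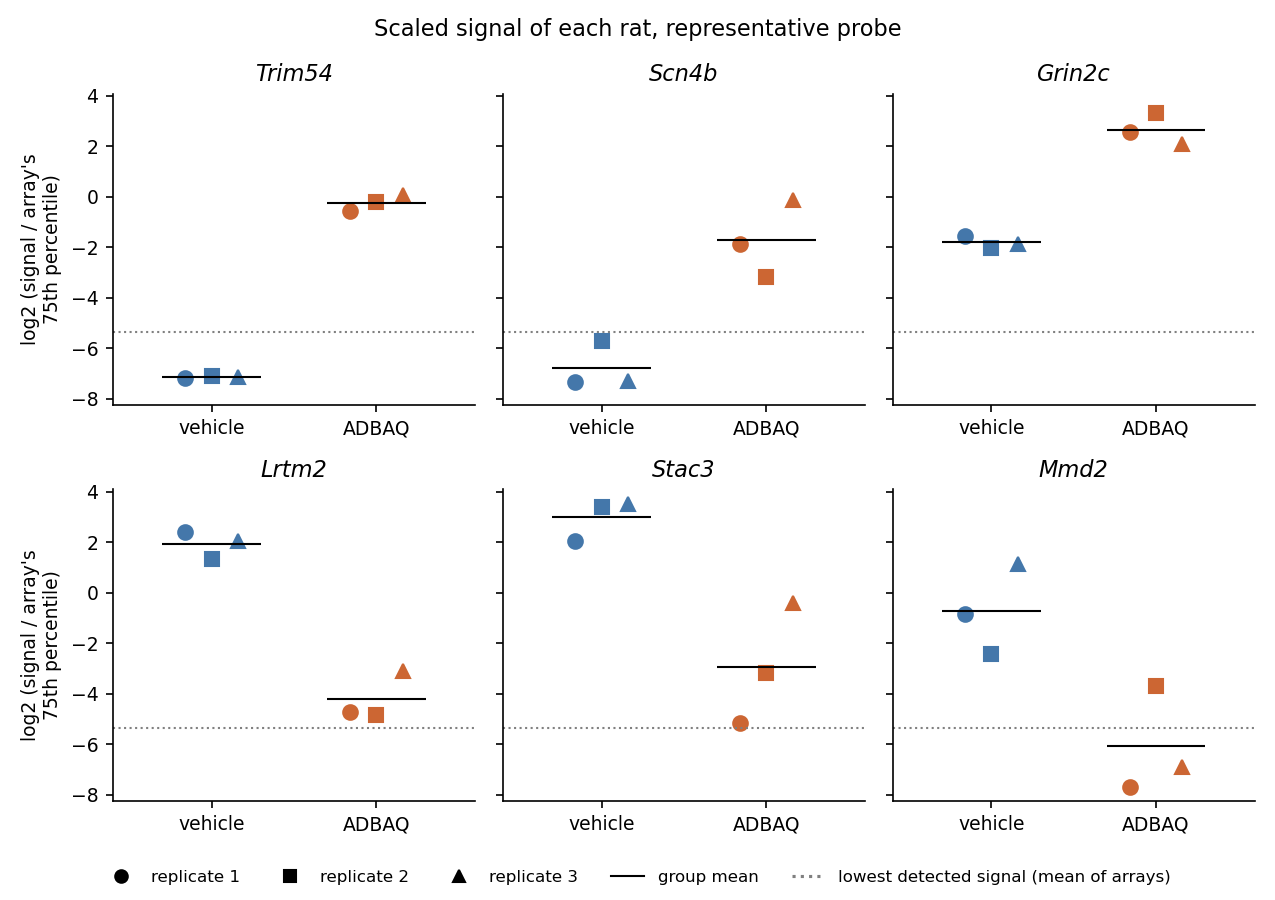
Scaled signal of the representative probe (the one with the highest mean over all arrays) of each member in each rat, as log2 of the signal over the array's 75th percentile. Points are rats, marked by replicate, black lines are group means and the dotted line is the mean over arrays of the lowest detected signal. Trim54, Scn4b and Grin2c are higher in all 3 ADBAQ rats, Lrtm2, Stac3 and Mmd2 are lower in all 3.

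**Figure D2:**
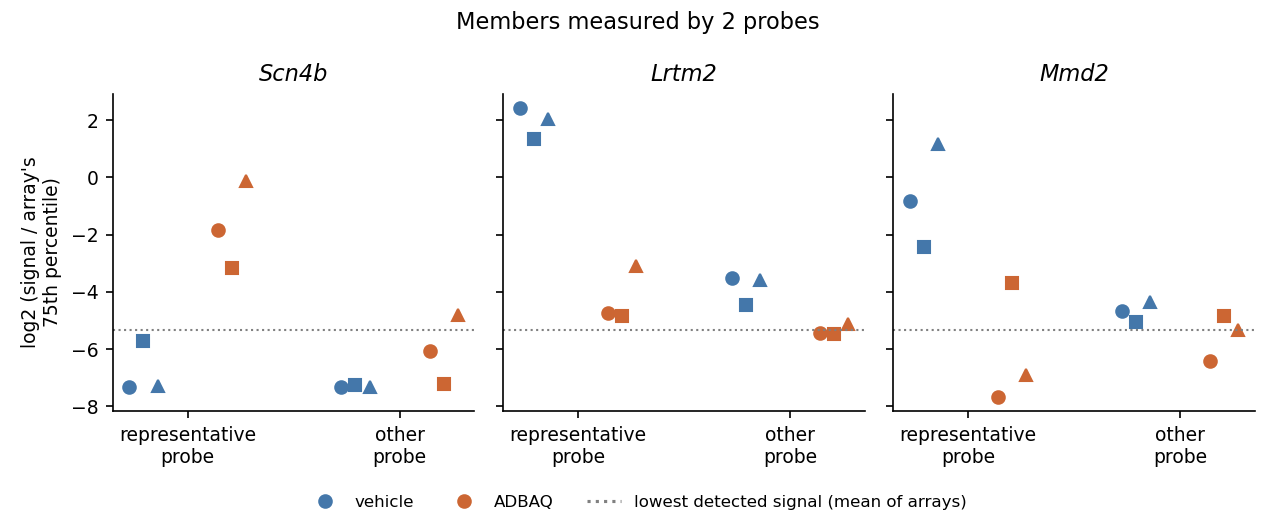
Both probes of Scn4b, Lrtm2 and Mmd2 in each rat, on the same log2 scale, vehicle in blue and ADBAQ in orange, with replicates 1, 2 and 3 as circles, squares and triangles. The second probe lies nearer to the lowest detected signal (dotted line) and shows smaller differences, 1.27, -1.48 and -0.85, and for Mmd2 the groups overlap.

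On the representative probes all 6 members had groups that did not overlap. This was true of 46.3% of the 11344 tested genes (21.2% with ADBAQ higher and 25.1% with ADBAQ lower), and nothing is read from the members' count since that contrast chose them. Of the 9 member probes 7 passed the filter, which asked for detection on every array of either group. The probes of Trim54 and Scn4b that passed did so through ADBAQ alone, and the brighter probe of Mmd2 and the dimmer probe of Lrtm2 through vehicle alone.

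Scn4b, Lrtm2, Stac3 and Mmd2 varied among rats of one group far more than most tested genes. The comparison is with all tested genes and not with genes of like signal, and the members were chosen on a large difference. The median SD over tested genes was 0.14 in vehicle and 0.13 in ADBAQ on the log2 scale. The SD of Mmd2 in vehicle, 1.80, exceeded that of 99.8% of tested genes, and its SD in ADBAQ, 2.12, that of 99.9%. For Stac3 these shares were 97.7% in vehicle and 99.9% in ADBAQ, for Scn4b 98.3% and 99.7%, and for Lrtm2 94.3% and 99.0%. Grin2c was above 74.0% in vehicle and 96.8% in ADBAQ. Trim54 exceeded 8.12% in vehicle, where its signal was not detected, and 87.4% in ADBAQ. Dim values add to the log2 spread of Scn4b in vehicle and of Mmd2 in ADBAQ. Within ADBAQ, rat 3 was highest for Trim54, Scn4b, Lrtm2 and Stac3 and lowest for Grin2c, while rat 2 was highest for Grin2c and Mmd2. Rat 3 thus stood nearest to vehicle for Lrtm2 and Stac3 but farthest from it for Trim54 and Scn4b.

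The other genes of the same pathways were taken as 9 lists, without the members, and tested with limma over all probes kept. Of 162 such genes 138 had a named probe, 55 of these were not well above background on any array, and 67 were tested. Of the 67, 6 rose and 12 fell, 26.9% in all, where 20.3% of all tested genes passed the threshold (9.05% higher and 11.3% lower). The median log2 fold change of the 67 was -0.18, against -0.04 over all tested genes. The count was between 4 and 9 with 1 array left out: 9 without vehicle replicate 1 or 2, 7 without vehicle replicate 3, and 4, 6 and 8 without ADBAQ replicate 1, 2 and 3. With spike-in scaling, which shifts the median of all tested genes to 0.72, 48 of the 67 were called higher and 2 lower.

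Among sarcomere genes 2 of 18 tested rose and 5 fell, with a median of 0.01. Tnni3, the cardiac inhibitory troponin, fell by 2.03 ± 0.28 on the log2 scale (SE, limma, adjusted p = 0.00942). Its signals were 45.9, 43.6 and 69.1 in vehicle against 17.6, 21.7 and 12.7 in ADBAQ, where 2 of 3 arrays were well above background. Actn3, the alpha-actinin of fast fibres, changed by -1.24 ± 0.21 (adjusted p = 0.0157) and Tpm2, a tropomyosin, by -0.87 ± 0.17 (adjusted p = 0.0215). Tnnc2, the calcium-binding troponin of fast fibres, rose by 2.08 ± 0.48 (adjusted p = 0.0336) on the representative probe and by 2.54 on its second. With normexp the values were -0.68 (Tnni3), -0.40 (Actn3), -0.64 (Tpm2) and 1.40 (Tnnc2). With spike-in scaling Actn3 (-0.48) and Tpm2 (-0.11) were no longer called. The call of Tnni3 was kept with each array left out. Actn3 missed the threshold without ADBAQ replicate 1 and without vehicle replicate 3 (highest adjusted p = 0.0569), Tpm2 without ADBAQ replicate 2 and without vehicle replicate 1 or 2 (0.0638), and Tnnc2 without any 1 array except ADBAQ replicate 3 (0.0956).

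Of the 12 tested genes of excitation-contraction coupling, the step in which Stac3 acts, 1 rose and 2 fell, with a median of -0.20. Cacna1s, the skeletal muscle calcium channel that Stac3 binds, fell by 1.86 ± 0.28 on the log2 scale (adjusted p = 0.0107), a call kept with each array left out. Its signal was 36.5, 32.7 and 41.0 in vehicle and 15.0, 18.2 and 9.03 in ADBAQ, where 2 of 3 arrays were well above background. With normexp the value of Cacna1s was -0.42. Pln, phospholamban, the inhibitor of the calcium pump SERCA, rose by 2.03 ± 0.52 (adjusted p = 0.0428), but the call was lost without any 1 array except ADBAQ replicate 3 (highest adjusted p = 0.113). Atp2a2, the pump of heart and most other tissues, changed by -0.60 ± 0.14 (adjusted p = 0.032). This call was lost without any 1 of the 6 arrays (highest adjusted p = 0.101), and the value was 0.15 with spike-in scaling. Stac, Stac2 and Ryr1 had no named probe.

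Of 6 tested myogenic regulators 1 rose and none fell (limma, no more at an unadjusted p under 0.05: 1 higher and 0 lower). It was Mef2d, with 0.37 ± 0.09 (adjusted p = 0.0341), which missed the threshold whichever array was left out (highest adjusted p = 0.102). Of the 7 tested genes of the muscle RING finger and fibre metabolism list none passed the threshold, and at an unadjusted p under 0.05 there was 1 lower.

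Most sodium channel genes were dim, and 2 of the 12 with a named probe were tested. Scn2b and Scn3b were not well above background on any array.

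Among ionotropic glutamate receptors 6 of 18 genes with a named probe were tested, 1 rose and 1 fell. Gria3, an AMPA receptor subunit, rose by 1.93 ± 0.38 (adjusted p = 0.0214) and by 2.58 on its second probe. Its signal was 46.2, 120.4 and 118 in vehicle and 477, 445 and 415 in ADBAQ, so the groups were separate. The call was lost without ADBAQ replicate 1, 2 or 3 (highest adjusted p = 0.0694). Of the other NMDA receptor subunits, Grin1, the obligatory one, changed by -0.10 ± 0.13 (adjusted p = 0.609). Grin2a, Grin2b, Grin3a and Grin3b were not well above background on any array. Grin2d changed by -0.53 ± 0.12 (adjusted p = 0.0296), which held only without vehicle replicate 2 among the fits with 1 array fewer (highest adjusted p = 0.0952), and the value was 0.23 with spike-in scaling.

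In the PAQR family, to which Mmd2 belongs, 1 of 8 tested genes rose and 2 fell. The one that rose was Mmd, the closest relative of Mmd2, by 3.29 ± 0.47 on the log2 scale (adjusted p = 0.00976), a call kept with each array left out. Its signal was 66.5, 89.5 and 64.9 in vehicle and 537, 840 and 1928 in ADBAQ, so every ADBAQ rat was above every vehicle rat. On their representative probes the paralogues Mmd and Mmd2 thus lay on opposite sides. The second probe of Mmd did not pass the filter, and on the second probe of Mmd2 the groups overlapped. Mmd2 was also chosen on its difference. Paqr4 changed by -0.64 ± 0.16 (adjusted p = 0.041) and Paqr3 by -0.40 ± 0.09 (adjusted p = 0.033). The call of Paqr3 was lost without any 1 array (highest adjusted p = 0.106) and that of Paqr4 without any 1 array except vehicle replicate 1 (0.114), and both values were above 0 with spike-in scaling (0.36 and 0.12). Of 8 tested genes of membrane proteins with leucine-rich repeats, 1 fell and none rose (none at an unadjusted p under 0.05 either). It was Lrrn3, a neuronal protein, with -1.01 ± 0.21 (adjusted p = 0.0267). Lrrn3 missed the threshold without vehicle replicate 2 or 3 and without ADBAQ replicate 1 or 3 (highest adjusted p = 0.0711). With spike-in scaling (-0.25) its call was lost as well.

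**Figure D3:**
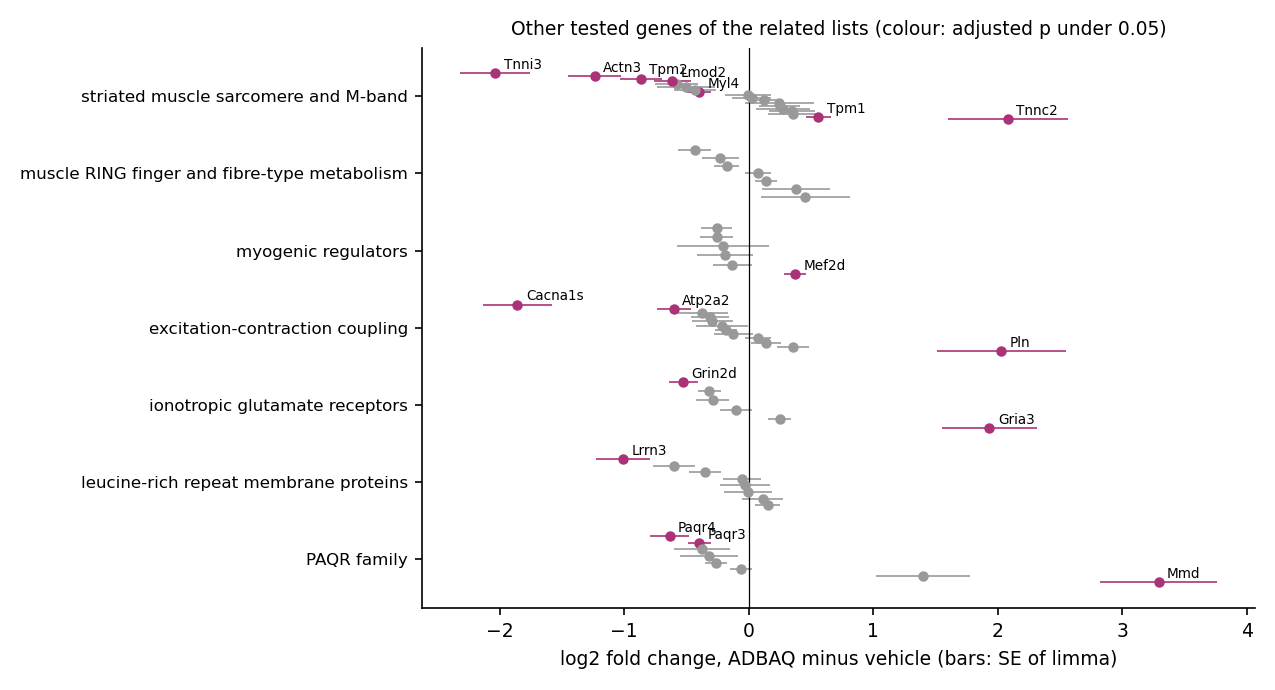
Log2 fold change (ADBAQ minus vehicle, bars SE of limma) of the tested genes related to the members, by list and without the sodium channels, each gene drawn once, with those at an adjusted p under 0.05 coloured and named. Mmd (3.29) is highest and Tnni3 (-2.03) lowest, and most genes lie between -1 and 1.

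Markers of tissues that normally hold these genes were checked as whole lists. Of 13 skeletal muscle markers with a named probe 2 were not well above background on any array, 9 were tested, 1 rose (Tnnc2) and 2 fell (Cacna1s and Actn3). The summed signal of the list, in multiples of the 75th percentile, ran from 1.57 to 2.09 in vehicle and from 1.92 to 3.30 in ADBAQ, so the groups overlapped. Acta1, skeletal actin, did not pass the threshold (0.36 ± 0.20, adjusted p = 0.243), nor did Ckm, muscle creatine kinase (0.38 ± 0.27, adjusted p = 0.36). Myh4, a fast myosin, was well above background on 1 ADBAQ array and no vehicle array.

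Of 16 neuron markers with a named probe 7 were not well above background on any array, Snap25 among them, and 6 were tested. Nefm, a neurofilament, rose (adjusted p = 0.00941), with no vehicle array well above background, and none fell (1 at an unadjusted p under 0.05). Against the floor used for Trim54, Nefm was 1.34-fold higher. Tubb3 did not pass (0.21 ± 0.24, adjusted p = 0.572). The summed signal of the list ran from 4.71 to 5.00 in vehicle and from 4.96 to 5.42 in ADBAQ. Of 10 Schwann cell and glia markers 8 were tested and 1 fell, with sums of 1.43 to 1.66 and 1.5 to 1.72. Of 9 smooth muscle markers 7 were tested and 2 fell, with sums of 18.0 to 19.3 and 12.6 to 14.2. None of 10 stellate cell markers passed (1 higher and 1 lower at an unadjusted p under 0.05), with sums of 26.2 to 36.0 and 24.2 to 26.6. Of 5 tested cholangiocyte markers 2 rose and 1 fell, with sums of 1.57 to 1.87 and 2.45 to 3.85. None of 9 Kupffer cell and endothelial markers passed (2 lower at an unadjusted p under 0.05), with sums of 93.3 to 110 and 92.9 to 105. In whole liver RNA, fewer cells of a type and less RNA per cell cannot be told apart, and the part of these cell types in the members' values was not tested.

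The genes next to each member on the chromosome were compared, since position was not used to choose the members. The 2 nearest named protein-coding genes on each side, in the gene order of the RefSeq table of the assembly GRCr8, gave 24 neighbours, of which 17 were tested. None rose and 4 fell (limma, 1 and 7 at an unadjusted p under 0.05). As a total this is near the share over all tested genes, of which 20.3% passed the threshold. Over all tested genes 9.05% were higher and 11.3% lower, so the lower share was larger among the neighbours, on few genes. Slc29a4, a monoamine transporter gene located 2 places before Mmd2, fell by 3.20 ± 0.18 on the log2 scale (adjusted p = 0.000969). Its signal was 1080, 1064 and 1073 in vehicle and 128, 182 and 163 in ADBAQ, and its other 2 probes changed by -0.59 and -0.38. Wipi2, which lies between them, changed by 0.17 ± 0.09 (adjusted p = 0.214), and Radil, on the other side of Mmd2, by -0.60 ± 0.24 (adjusted p = 0.13).

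The neighbours that passed the threshold were lower beside members of either direction. Slc30a3, the synaptic vesicle zinc transporter and the second gene after Trim54, fell by 1.39 ± 0.14 on the log2 scale (adjusted p = 0.00455). Fdxr, a mitochondrial reductase gene next to Grin2c, changed by -0.54 ± 0.08 (adjusted p = 0.011), and by 0.21 with spike-in scaling. Scn2b, next to Scn4b and itself a sodium channel beta subunit, read between 3.17 and 4.84 in vehicle and between 3.15 and 3.45 in ADBAQ, not well above background on any array. Cacna2d4, a calcium channel subunit gene that overlaps Lrtm2, read between 2.51 and 4.36 in vehicle and between 2.60 and 2.84 in ADBAQ and was likewise not detected. Inhbc, an inhibin subunit gene near Stac3, changed by -0.62 ± 0.08 (adjusted p = 0.00886), and by 0.14 with spike-in scaling. The calls of Slc29a4, Slc30a3, Fdxr and Inhbc were kept with each array left out.

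**Figure D4:**
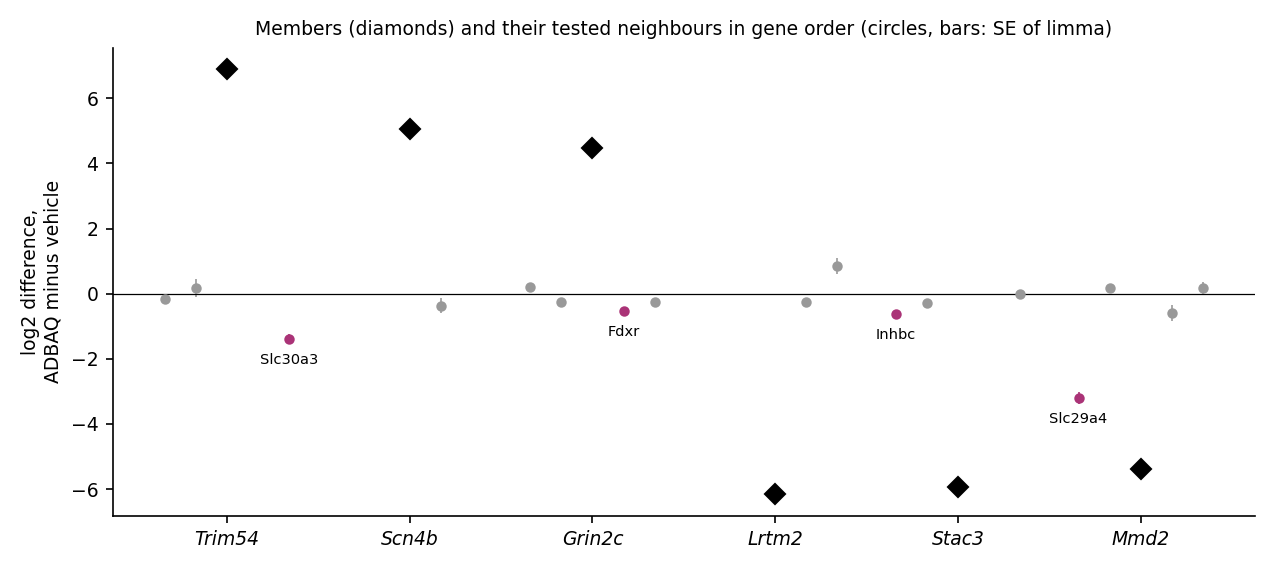
Log2 difference (ADBAQ minus vehicle) of each member (diamonds) and of its tested neighbours in gene order (circles, bars SE of limma), with those at an adjusted p under 0.05 coloured and named. Slc29a4 at -3.20 is the neighbour farthest from 0. The places of Trim54, Scn4b and Mmd2 rest on signals below detection on some or all arrays of 1 group.

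For each member the 3 tested genes with the highest Pearson correlation to its representative probe over the 6 arrays were listed. With 2 groups on 2 slides such values follow the group difference and, for widely spread members, also the order of rats within a group. The members were themselves chosen on that difference, so these genes are given as a description, with no test. The gene most like Trim54 was Myh7b, a slow myosin heavy chain of striated muscle (r = 0.9997). Its signal was 41.5, 44.2 and 38.1 in vehicle and 324, 311 and 358 in ADBAQ, a difference of 2.58 on the log2 scale. Next came Tafa4, a secreted protein known from sensory neurons (r = 0.9995), and Nmnat1 (r = 0.9987). Tafa4 was not well above background in vehicle and, against the floor used for Trim54, was 5.04-fold higher in ADBAQ. Grin2c was followed most closely by Sqstm1 (r = 0.9966), an autophagy receptor, and Txnrd1 (r = 0.9963), a thioredoxin reductase, both known targets of NRF2, which responds to oxidants and electrophiles. The difference was 1.15 for Sqstm1, on the brightest of its 5 probes, and 1.59 for Txnrd1. The other Sqstm1 probes ran from 0.0023 to 1.19, and the mean of its probes was 0.78. The third was Slc25a39 (r = 0.9954). For Scn4b they were Sdad1, Plscr1 and Arl11 (r between 0.9954 and 0.9968).

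The genes most like Lrtm2 were Serpina4 (kallistatin, r = 0.9974), Cpne8 (r = 0.9973) and Fam89a (r = 0.9970). The difference was -1.45 for Serpina4 and -2.19 for Fam89a. For Stac3 they were Ero1b, Cadm4 and Gstm5 (r between 0.9943 and 0.9972), with differences of -0.56, -0.38 and -0.92. For Mmd2 they were Hes7, Or10c1 and Akp3 (r between 0.9942 and 0.9995), with differences of -0.29, -0.50 and -0.52. Cadm4, Hes7 and Akp3 did not pass the threshold (limma, adjusted p = 0.0644, 0.104 and 0.0557). The differences of Cpne8, Ero1b, Cadm4, Hes7, Or10c1 and Akp3 turned with spike-in scaling.

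**Figure D5:**
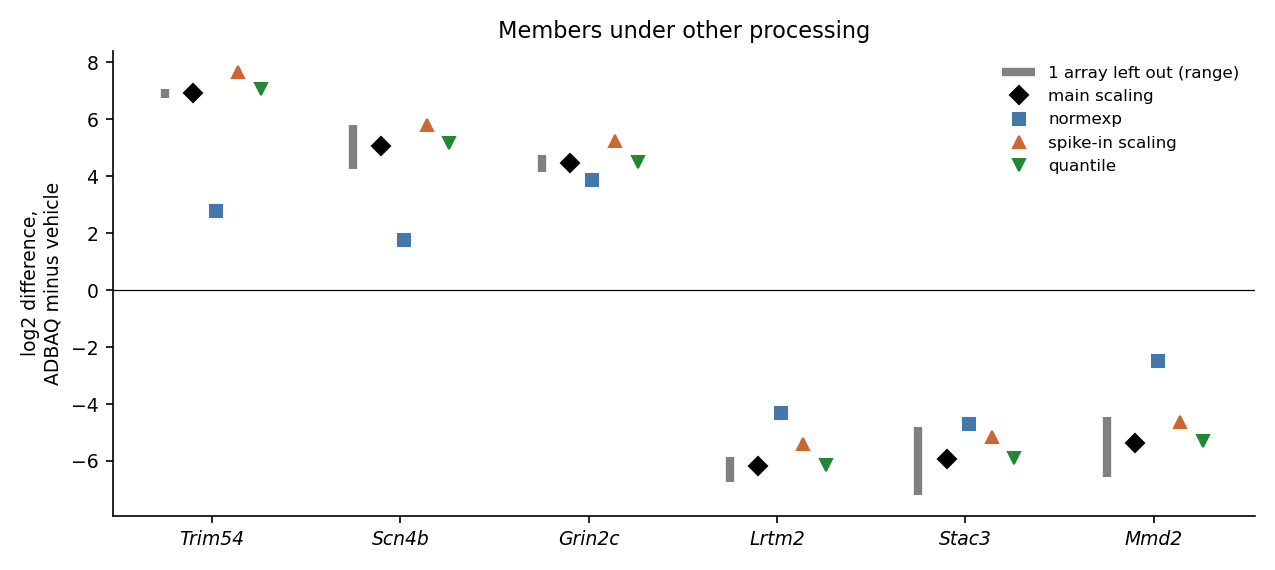
Log2 difference (ADBAQ minus vehicle) of the representative probe of each member with the main scaling, normexp background correction, spike-in scaling and quantile normalization, and the range with single arrays left out (grey bars). The direction stays in these settings, and normexp gives the smallest sizes, 2.77 for Trim54 and 1.75 for Scn4b.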

How the data were processed

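Liver RNA of 6 rats was measured on 1-colour Agilent arrays, scanned and extracted with Agilent Feature Extraction 10.7 per the submitters' processing notes (10.7.1.1 per the file headers). Per the file headers, the scanner output gives each spot's intensity, background-corrected by the extraction software and linear, with detection flags. In the series-wide table that the authors deposited, entries matched the ratio of processed signal to the 75th percentile of the array. They did so, within 0.1% of the value plus 0.0001, for 100% of probes on 5 arrays and for 56.3% on vehicle 2, where the median of deposited over computed value was 0.998. That table is linear and not centred per gene. Its medians were 0.0967, 0.097 and 0.0983 (vehicle 1, 2 and 3) and 0.093, 0.0971 and 0.0952 (ADBAQ 1, 2 and 3).

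Here the processed signal was divided by that percentile and put on the log2 scale. Outlier spots, at most 2 on an array, were omitted, and no probe was saturated. Probes detected (well above background) on all 3 arrays of a group entered limma 3.58.1 in R 4.3.3, with Benjamini-Hochberg adjustment and a threshold of 0.05. The brightest probe stood for a gene. RefSeq accessions named 27460 probes of 15284 genes. Named are the members, their direct relatives, the up to 4 largest called changes of each list, neighbours, the 3 most alike genes and a few markers. Nefm and Ryr1 were added after their values were seen. The members and lists were chosen with earlier results of these data known. Alternatives changed the background correction, scaling, filter, probe summary, model and arrays used. Some results on single genes of the lists are not reported here. The procedure was tested on simulated data.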

Additional observations from a re-analysis of the deposited data

How the results depend on the processing

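No member changed direction under the alternatives run. With normexp background correction, followed by quantile normalization and using the median spot signal, the differences were 2.77 (Trim54), 1.75 (Scn4b), 3.85 (Grin2c), -4.32 (Lrtm2) and -2.48 (Mmd2). With spike-in scaling Trim54 was at 7.66 and Grin2c at 5.23. The mean of the probes kept was -3.82 for Lrtm2. The mean of all probes, an alternative chosen after seeing the data, was 3.16 for Scn4b, -3.82 for Lrtm2 and -3.11 for Mmd2. Leaving out 1 array gave 6.74 to 7.07 (Trim54), 4.25 to 5.79 (Scn4b), 4.14 to 4.75 (Grin2c), -6.73 to -5.85 (Lrtm2), -7.18 to -4.80 (Stac3) and -6.58 to -4.45 (Mmd2).

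The count of called genes, 2308, was 9124 with spike-in scaling, 3530 with no filter on dim probes, 982 with the replicate block and 901 to 1547 with 1 array left out (lowest without ADBAQ replicate 1). Of the called genes 44.5% were higher, against 98.0% with spike-in scaling, 32.4% with no filter and 52.9% with normexp. The related lists had 18 calls, against 50, 39 and 7 in the first 3 of these settings and between 4 and 9 with 1 array left out. Arrays of the same replicate number did not deviate together (r = -0.029, -0.020 and -0.0046), and unlike numbers gave r from -0.045 to 0.064. No pairing by number was seen, though such values cannot exclude one. With fewer arrays or fewer residual degrees of freedom fewer genes pass, and the cause of the other shifts was not tested.

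Spike-in scaling shifts all genes upward and turned Atp2a2 (0.15), Grin2d (0.23), Paqr4 (0.12), Paqr3 (0.36), Grin1 (0.65), Fdxr (0.21), Inhbc (0.14), Adipor2 (0.49), Cpne8 (0.33), Ero1b (0.20), Cadm4 (0.38), Hes7 (0.47), Or10c1 (0.26), Akp3 (0.23) and Alb (0.41). Normexp turned Grin1 (0.021) and Alb (0.064), quantile normalization Alb (0.067). Tubb3 ran from -0.057 to 0.41 with 1 array left out. Values near the lowest detected signal limit the folds of Trim54, Scn4b and Mmd2.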
